A study of Rattus norvegicus with 4 samples.

Results

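Mitochondrial ribosomal protein genes, whose names begin with Mrpl (large subunit) or Mrps (small subunit), were measured in rat colon mucosa by 71 of the 41012 oligonucleotide probes on the array that were not controls. A probe was a member when its gene name in the files, without a trailing _predicted or _mapped, began with Mrpl or Mrps and a digit. The 71 probes name 61 of the 35561 gene names on the array, 39 of the large and 22 of the small subunit, and 60 of the 61 names are current RefSeq symbols. The exception, Mrps36, is now called Kgd4 and is known as a component of the 2-oxoglutarate dehydrogenase complex. Mrpl10 and Mrpl11, which with Mrpl12 build the stalk of the large subunit, had no probe under these names.

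The resveratrol group was 8 F344 rats, an inbred strain, that received 1 mg/kg resveratrol a day for 20 days and then drank 5% dextran sodium sulphate (DSS) for 5 days. DSS causes colitis by harming the epithelial lining. The comparison was with F344 rats on standard chow given the same DSS course, whose RNA was a single control pool. Both sides had therefore received DSS, and rats without DSS were not analysed here. Each of 4 arrays carried the RNA of 2 resveratrol rats in the red dye Cy5 and the control pool in the green dye Cy3, and each array is 1 replicate. Values are log2 ratios of resveratrol plus DSS over the control pool, so a positive value means higher in resveratrol rats. They were tested against 0 with limma across all 18869 probes that passed the filter, with Benjamini-Hochberg adjusted p-values and a threshold of 0.05. Because the control pool was 1 sample, the test leaves out the spread between control rats, and because no dyes were swapped, a dye effect and a treatment effect cannot be told apart.

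Mitochondria have their own ribosome, made of ribosomal RNA from the mitochondrial genome and proteins encoded in the nucleus, made in the cytosol and imported. It translates the few messages of the mitochondrial genome, all of which encode membrane subunits of the respiratory chain and ATP synthase. The small subunit binds the message and reads its codons, and the large subunit joins the amino acids and releases the chain through an exit tunnel towards the inner membrane. Part of its proteins descend from the bacterial ribosome, and the rest were added during the evolution of mitochondria. Colonocytes rely on mitochondrial oxidation, with butyrate as a main fuel.

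The genes leaned upward in resveratrol rats by small amounts. Of the 53 genes tested by their brightest probe, 20 were higher in resveratrol rats, only Mrps30 was lower, and 32 did not pass the threshold. Over all 16534 gene names tested in the same way, 22.3% were higher and 24.4% lower. Counted by probe, 25 of 60 members (41.7%) were higher and 1 lower, beside 24.4% higher and 22.7% lower over all 18869 probes. The median over the 53 genes was 0.17 on the log2 scale (quartiles 0.03 and 0.47) and the median over all tested probes was -0.02. No gene differed by 1 or more on the log2 scale, and 7 of the 20 that rose had a measured ratio of at least 1.5-fold (for Mrps10, among them, only a lower bound of the difference holds). In bulk mucosa, fewer cells of a type and less RNA per cell cannot be told apart. Without replicates 1, 2, 3 and 4 in turn, 13, 9, 17 and 22 genes passed as higher. Counted by probe these were 24.1%, 16.7%, 36.7% and 46.7% of the members tested, beside 12%, 12.1%, 25.5% and 21.0% of all probes.

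The scaling and the filter also moved the counts. With arrays centred on their median in place of loess, the median of all tested probes was 0.20 and that of the member genes 0.48, and 35 of 60 member probes were higher and none lower, beside 36.3% higher and 9.75% lower over all probes. With only probes bright in both dyes on every array, 13 of 46 member probes were higher (28.3%), beside 19.7% of all probes. With the standard error multiplied by the square root of 2, to stand for an unmeasured spread of the control pool, 8 of 60 were higher (13.3%), beside 7.72% of all probes.

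Of the 71 probes, 11 were not tested, and with them Mrpl2, Mrpl3, Mrpl4, Mrpl40, Mrpl46, Mrpl47, Mrpl50 and Mrps7 have no value here. The tested members are those with signal well above background in at least 1 dye on at least 3 arrays. A probe can pass that filter through the brighter dye alone, so the counts describe the tested members and not the family as a whole. For 9 of the 53 genes only Cy5, the dye of the resveratrol rats, was well above background on at least 3 arrays. Of these 9, 7 were among the 20 that rose, all 7 of the small subunit. Over all gene names, 824 of the 1360 tested through Cy5 alone in this way were higher too. Of the 43 genes with both dyes well above background on at least 3 arrays each, an alternative added after seeing the data, 13 rose and 1 fell (30.2% higher, median 0.14), beside 21% higher over all gene names filtered alike. Among the tested probes 53 had values on all 4 arrays, 1 on 3 arrays and 6 on the arrays of slide 1 only. No member probe was saturated.

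Many members kept their sign on every array. Of the 53 member probes with 4 values, 31 lay above 0 on all 4 arrays (58.5%) and 1 lay below 0 on all 4 (1.89%). Over the 14200 probes with 4 values, 37.7% lay above 0 on all 4 arrays and 26% below. Of the 20 genes that rose, 19 lay above 0 on all 4 arrays, with Mrps12 as the exception at -0.03 on replicate 4. Replicate 4 gave the lowest value for 15 of the 20.

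**Figure D1:**
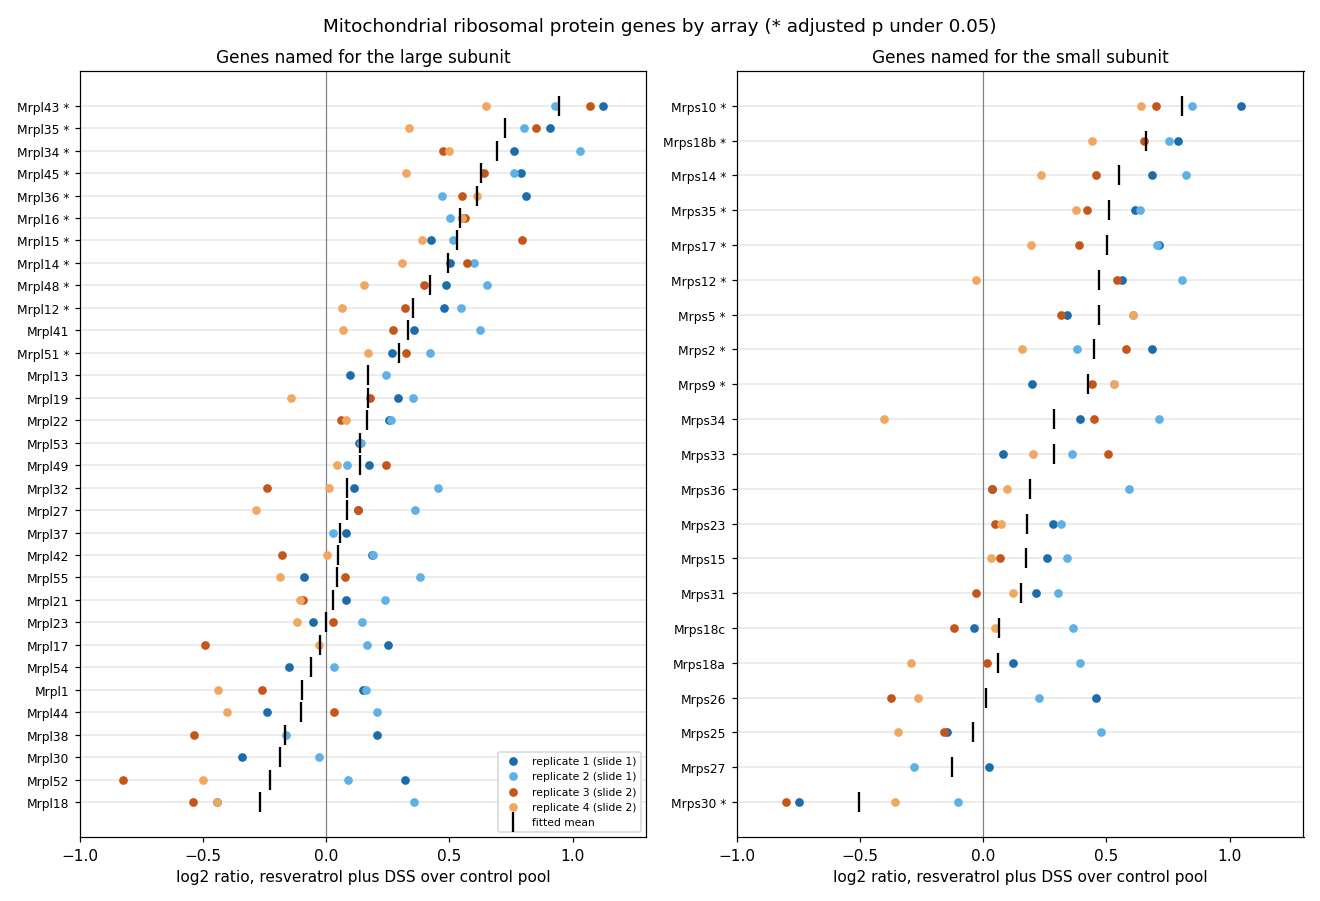
Log2 ratio of resveratrol plus DSS over the control pool (x axis) for each of the 53 tested genes (rows), with 1 point per array, coloured by replicate, a black tick for the fitted mean and an asterisk for an adjusted p under 0.05. Genes named for the large subunit are on the left and those named for the small subunit on the right. Points of the genes at the top lie right of 0, and points of replicate 4 often lie lowest.

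Among genes of the large subunit, Mrpl43 rose furthest and Mrpl35, Mrpl34, Mrpl45 and Mrpl36 followed. Mrpl43, a protein that bacterial ribosomes lack, had log2 ratios of 1.12, 0.93, 1.07 and 0.65 on replicates 1 to 4. It was the highest of the 53 brightest probes on replicates 1, 3 and 4 and second to Mrpl34 on replicate 2. The mean was 0.94 ± 0.11 (moderated SE, n = 4, adjusted p = 0.00462), a 1.92-fold difference. Its probe is placed at chr1:250333484-250333543 of rn3, minus strand, in the probe annotation of the files, and its first 30 bases are shown as those of the member with the highest mean here. With the scanner's processed signals Mrps10 lay above it (1.31 and 1.16).
Mrpl43: agttcgtggaacgcgaagtgacggacttcg

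Mrpl35, Mrpl34 and Mrpl36 are small proteins that bacterial ribosomes have too. Mrpl35 had 0.91, 0.80, 0.85 and 0.34, with replicate 4 well under the others, and a mean of 0.73 ± 0.12 (adjusted p = 0.00829). Mrpl34 had 0.76, 1.03, 0.47 and 0.50, higher on the arrays of slide 1 than on those of slide 2, and a mean of 0.69 ± 0.12 (adjusted p = 0.00914). Mrpl36 had 0.81, 0.47, 0.55 and 0.61, and a mean of 0.61 ± 0.09 (adjusted p = 0.00685). The arrays of all 3 genes lay above 0 throughout.

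Mrpl45 lines the exit tunnel and is known to hold the ribosome at the inner membrane. It had 0.79, 0.76, 0.64 and 0.33, again lowest on replicate 4, with a mean of 0.63 ± 0.11 (adjusted p = 0.00881). The other tunnel proteins Mrpl22, Mrpl23 and Mrpl17 did not pass the threshold by their brightest probe, at 0.16, 0.00 and -0.03. Mrpl16, which lies near the peptidyl transferase centre where amino acids are joined, had 0.55, 0.50, 0.56 and 0.55. Its 4 arrays were nearly equal, with a mean of 0.54 ± 0.08 (adjusted p = 0.00605), while Mrpl27, from the same region, had a mean of 0.08 ± 0.12 (adjusted p = 0.579).

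Mrpl15, a core protein of bacterial descent, had 0.43, 0.52, 0.79 and 0.39 and a mean of 0.53 ± 0.10 (adjusted p = 0.0111), highest on replicate 3. Its Cy3 signal was well above background on 3 of the 4 arrays. Mrpl12, the stalk protein that helps to recruit translation factors, had 0.48, 0.55, 0.32 and 0.06. The values of slide 2 were below those of slide 1, and the mean was 0.35 ± 0.11 (adjusted p = 0.0391). Mrpl14, Mrpl48 and Mrpl51 completed the 11 genes of the large subunit that rose, with means of 0.50, 0.42 and 0.30. Without replicate 1 the threshold was missed by Mrpl12 (adjusted p = 0.141), Mrpl48 (0.0863) and Mrpl51 (0.11). Without replicate 2 it was missed by Mrpl12 (0.164), Mrpl14 (0.0571), Mrpl15 (0.0517), Mrpl48 (0.104) and Mrpl51 (0.165), and without replicate 3 by Mrpl12 (0.0531) and Mrpl51 (0.0553).

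In the small subunit, Mrps10 encodes a protein of the head. Its measured log2 ratios were 1.05, 0.85, 0.70 and 0.64. For this probe the control pool's Cy3 signal was well above background on no array and Cy5 on 3 arrays, which leaves only a bound. Mrps10 was at least 1.35-fold higher in resveratrol rats. This takes the mean Cy5 signal over the higher, on each array, of the Cy3 signal and the dimmest signal well above background. The limma test of the measured log2 ratios gave an adjusted p of 0.00496, and the bound itself was not tested. Mrps9, also in the head, rose by 0.43 ± 0.09 (adjusted p = 0.017), with Cy3 well above background on 2 arrays.

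Mrps18b, a paralogue of the bacterial protein S18, had 0.79, 0.75, 0.65 and 0.44 and a mean of 0.66 ± 0.09 (adjusted p = 0.0062). Mrps14, of bacterial descent, had 0.68, 0.82, 0.46 and 0.23 and a mean of 0.55 ± 0.12 (adjusted p = 0.016). Both were highest on the arrays of slide 1 and lowest on replicate 4. Mrps35, which bacteria lack, had 0.62, 0.64, 0.42 and 0.38 and a mean of 0.51 ± 0.09 (adjusted p = 0.00936). Mrps17, of bacterial descent, had 0.72, 0.71, 0.39 and 0.20 and a mean of 0.50 ± 0.12 (adjusted p = 0.0199). In both, each array of slide 1 lay above each array of slide 2, and Cy3 was well above background on 2 arrays for Mrps18b, Mrps35 and Mrps17.

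Mrps12, Mrps5 and Mrps2 encode proteins around the decoding centre and the path of the message, and each passed as higher. Mrps5 and Mrps2 were tested through Cy5 alone, the dye in which they were higher, and nothing is read from this count. Mrps12, at the decoding centre, had a mean of 0.47 ± 0.15 (adjusted p = 0.0408). Mrps5, which lines the entry of the message, reached 0.47 ± 0.09 (adjusted p = 0.0137), with Cy3 well above background on 1 array and Cy5 on 3. Mrps2 was at least 1.24-fold higher, a bound again, because Cy3 was well above background on none of the 4 arrays, and Cy5 on 3. Its adjusted p of 0.0229 is that of the measured log2 ratios in limma, and the bound was not tested. Without replicate 1 the threshold was missed by Mrps12 (adjusted p = 0.121), Mrps14 (0.0649), Mrps17 (0.078), Mrps2 (0.0897) and Mrps35 (0.0505). Without replicate 2 it was missed by these 5 (0.148, 0.068, 0.0823, 0.0725 and 0.0539) and by Mrps5 (0.0691) and Mrps9 (0.0807), and without replicate 3 by Mrps12 (0.0671).

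Mrps30 was the member that fell. Despite its name, structures of the mammalian mitochondrial ribosome place its protein in the large subunit. It had log2 ratios of -0.75, -0.10, -0.80 and -0.36, all below 0 but far apart, and a mean of -0.50 ± 0.14 (n = 4, adjusted p = 0.0307), a ratio of 0.706. The call was lost without replicate 1 (-0.42, adjusted p = 0.107), without replicate 3 (-0.40, adjusted p = 0.0543), without replicate 4 (-0.55, adjusted p = 0.0576), on slide 2 alone (-0.58, adjusted p = 0.0762) and with arrays centred on their median in place of loess (-0.27, adjusted p = 0.189). It was lost too with slide as a random block (adjusted p = 0.0544), where 0 member genes were lower, and with the standard error times the square root of 2 (adjusted p = 0.117). The first 30 bases of its probe, at chr2:50438911-50438970 of rn3, minus strand, are shown as those of the lowest member.
Mrps30: gttgacaaaccaggagaaagaacttgatcc

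The other genes at the low end did not pass the threshold, and their arrays disagreed. Mrpl18, of bacterial descent, had -0.44, 0.36, -0.54 and -0.44 and a mean of -0.27 ± 0.17 (adjusted p = 0.209). Replicate 2 alone was positive, and without it the mean was -0.48 and passed as lower (adjusted p = 0.0488). Mrpl52 had 0.32, 0.09, -0.83 and -0.50, positive on slide 1 and negative on slide 2, with a mean of -0.23 ± 0.20 (adjusted p = 0.362). Mrpl1, of the mobile L1 stalk at which spent transfer RNA leaves, showed the same split, with 0.15, 0.16, -0.26 and -0.44 and a mean of -0.10 ± 0.13 (adjusted p = 0.548). Mrpl44, which has the fold of an RNase III enzyme, had -0.24, 0.21, 0.03 and -0.40 and a mean of -0.10 ± 0.12 (adjusted p = 0.503), positive on 2 of 4 arrays.

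Mrpl38 had 3 values, 0.21, -0.16 and -0.54 on replicates 1 to 3, and a mean of -0.17 ± 0.16 (adjusted p = 0.429). Mrpl30, of bacterial descent, had -0.34 and -0.03 on the 2 arrays of slide 1 and no value on slide 2, with a mean of -0.19 ± 0.15 (adjusted p = 0.353). Neither gene therefore has a full set of arrays behind its value.

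By name, 11 of 32 genes of the large subunit rose and none fell by the limma test (0 also at an unadjusted p under 0.05), and 9 of 21 genes of the small subunit rose and 1 fell. The shares higher were 34.4% and 42.9%, beside 22.3% over all gene names. The medians were 0.14 for large and 0.29 for small, a difference of -0.15. On the single arrays the large subunit median was 0.23, 0.35, 0.18 and 0.05, against 0.28, 0.48, 0.35 and 0.11 for the small subunit. The large subunit median was below that of the small subunit on all 4 arrays, with differences of -0.05, -0.12, -0.17 and -0.06 (mean -0.10, SD 0.06, n = 4). The arrays share the same probes and the same control pool, so these 4 differences are a description. The difference was not tested. Among genes bright in both dyes on all arrays it was -0.02. Of genes with both dyes well above background on at least 3 arrays each, 11 of 30 large subunit genes rose (36.7%, median 0.14). Of the small subunit 2 of 13 did (15.4%, median 0.15), beside 21% over all gene names filtered alike. The higher count of the small subunit did not hold there, and its share was below that of all gene names.

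**Figure D2:**
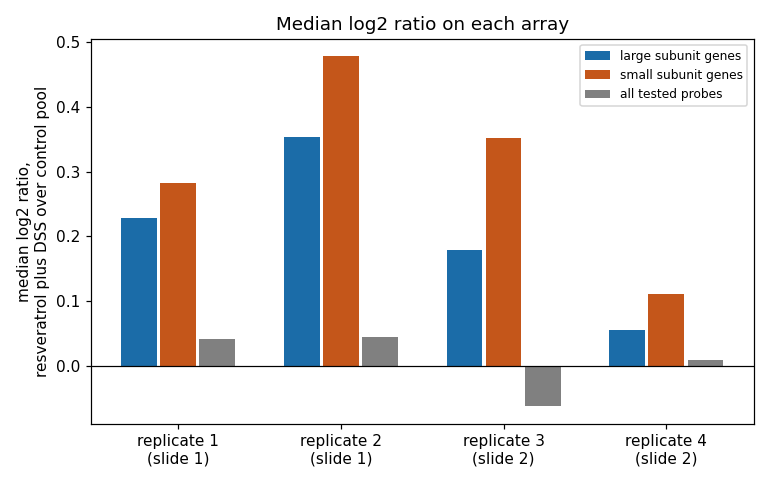
Median log2 ratio of resveratrol plus DSS over the control pool (y axis) on each array (x axis), for genes named for the large subunit (blue), for the small subunit (orange) and for all tested probes (grey). The bar of the small subunit is the highest on every array and that of all probes the lowest, and replicate 4 has the lowest bars for both subunits.

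The names do not give the subunit in every case, and moving 3 genes widened the gap. With Mrps30 and Mrps18a counted in the large subunit, where structures place them, and Mrps36 left out, 11 of 34 large subunit genes rose and 1 fell, and 9 of 18 small subunit genes rose and none fell. The shares higher were 32.4% and 50%, beside 22.3% over all gene names. Of the 9 small subunit genes that rose, 7 were tested through Cy5 alone. The medians were then 0.11 and 0.36, a difference of -0.25. Mrps18a, a further paralogue of S18, had 0.12, 0.40, 0.02 and -0.29 and a mean of 0.06 ± 0.13 (adjusted p = 0.703). Mrps36 had 0.04, 0.59, 0.04 and 0.10 and a mean of 0.19 ± 0.12 (adjusted p = 0.222), with replicate 2 apart from the other 3.

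The genes were also sorted by whether their protein has a bacterial counterpart, as given by the unified names of ribosomal proteins. Of 28 with a counterpart 14 rose (50%) and none fell, with a median of 0.26. Of 25 without, 6 rose (24%) and 1 fell, with a median of 0.14, a share near the 22.3% over all gene names. These 25 include Mrps18a and Mrps18b, although they are paralogues of S18, and Mrps36, which is not a ribosomal subunit. In the small subunit 7 of 9 genes with a counterpart rose (median 0.47), beside 7 of 19 in the large subunit (median 0.16). The 7 were Mrps10, Mrps14, Mrps17, Mrps12, Mrps5, Mrps2 and Mrps9, and Mrps15 and Mrps18c, at 0.18 and 0.06, did not pass. Of these 7 genes 5 were tested through Cy5 alone, the dye in which they were higher, so these counts describe the tested members only. With both dyes well above background on at least 3 arrays each, 9 of 22 genes with a counterpart rose (40.9%) and 4 of 21 without (19%), beside 21% of all gene names. Without replicate 1 or 2, 9 and 5 of 26 genes with a counterpart passed as higher (34.6% and 19.2%) and 3 and 3 of 21 without (14.3% each), beside 12% and 12.1% of all probes, each gene by the same probe as with all 4 arrays. Of the 9 small subunit genes with a counterpart, 3 and 1 then passed. The difference between these classes was not tested.

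Signal strength moved with the ratios. Of the 11 genes with a dye not well above background on at least 1 array 8 rose, with a median of 0.47. Of these 8, 7 were tested through Cy5 alone, the dye in which they were higher, and nothing is read from this count. Over all gene names, 824 of the 1360 tested in this way were higher. Of the 42 genes bright in both dyes on all arrays 12 rose and 1 fell, with a median of 0.14. In a fit of only the probes bright in both dyes on every array, 19.7% of all probes were higher. Over the 60 tested probes, the log2 ratio and the mean log2 intensity had a Pearson r of -0.35 and a Spearman rho of -0.34, as a description over probes that share the same 4 arrays. With the share of G and C in the probe, r was 0.11. Of the 9 small subunit genes that rose, only Mrps14 and Mrps12 were bright in both dyes on every array. The part of signal strength in these results was not tested.

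For 7 genes 2 probes each were tested, and in all 7 the probes differed in sign or in call. In 6 of the 7 the dimmer probe had the higher ratio, with Mrps14 as the exception. The dimmer probe passed as higher in 5 genes, and the brighter probe in 1. No such count over other genes with 2 probes is given here, so these counts describe the 7 genes only. For Mrpl55 and Mrps23 the dimmer probe had Cy3 well above background on 2 arrays only. Both were thus tested through Cy5 alone, the dye in which they were higher. The probes below are shown because a gene's call turned on which of them was read.

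Mrps27, a small subunit protein with RNA-binding repeats, gave the widest gap. Its dimmer probe had 0.82, 0.64, 0.90 and 0.66 and a mean of 0.75 ± 0.09 (n = 4, adjusted p = 0.00485). Its brighter probe had 0.03 and -0.28 on slide 1 and no value on slide 2, with a mean of -0.13 ± 0.15 (n = 2, adjusted p = 0.509). The dimmer probe was positive on all 4 arrays, and the brighter rests on 2 arrays that differ in sign. In rn3 the dimmer probe is placed at chr2:30324308-30326355 and the brighter, upstream of it on the plus strand, at chr2:30315683-30320216, and both placements are longer than the 60 bases of a probe. Their first 30 bases follow, with the hexamer ACCTCA in capitals.
Mrps27 dimmer probe: tcaggcctctcggtccaaactacaggagtt
Mrps27 brighter probe: agacagACCTCAcatgggaagaagaaagag

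Mrpl55, a large subunit protein, showed a gap of the same kind. Its dimmer probe had 0.73, 0.62, 0.94 and 0.24 and a mean of 0.63 ± 0.13 (adjusted p = 0.0134), and its brighter probe -0.09, 0.38, 0.08 and -0.19 and a mean of 0.04 ± 0.12 (adjusted p = 0.759). All 4 arrays gave the dimmer probe the higher ratio. The dimmer probe is placed at chr10:45521778-45522546 and the brighter at chr10:45522616-45522675 of rn3, both on the plus strand.
Mrpl55 dimmer probe: actatccatatccggtaccgggagccacga
Mrpl55 brighter probe: gaagaaccagaaatggttgacagttttgac

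Mrpl17 lies at the exit tunnel. Its dimmer probe had 0.41, 0.44, 0.58 and 0.36 and a mean of 0.45 ± 0.08 (adjusted p = 0.0109), and its brighter probe 0.25, 0.17, -0.49 and -0.03 and a mean of -0.03 ± 0.14 (adjusted p = 0.884). The gap was widest on replicate 3. On rn3, minus strand, the dimmer probe is at chr1:163650926-163650985 and the brighter at chr1:163650823-163650882.
Mrpl17 dimmer probe: attgcaactacacaagaatgctacagatcc
Mrpl17 brighter probe: tctgcctcacagagatagcaaccttactct

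The other 4 pairs differed less, or in the other direction. Mrps23 had 0.32, 0.42, 0.39 and 0.35 by its dimmer probe (mean 0.37 ± 0.08, adjusted p = 0.0149) and 0.28, 0.32, 0.05 and 0.07 by its brighter (mean 0.18 ± 0.09, adjusted p = 0.137). Mrpl41 had 0.34, 0.38, 0.32 and 0.30 by its dimmer probe (mean 0.34 ± 0.08, adjusted p = 0.0188) and 0.36, 0.62, 0.27 and 0.07 by its brighter (mean 0.33 ± 0.11, adjusted p = 0.0503). In Mrpl41 the means were nearly the same and only the spread put them on opposite sides of the threshold. Mrpl18 had 0.55, 0.55, 0.25 and -0.13 by its dimmer probe (mean 0.30 ± 0.14, adjusted p = 0.104), opposite in sign to the mean of its brighter probe. Mrps14 had 0.11, 0.79, 0.03 and -0.06 by its dimmer probe (mean 0.22 ± 0.16, adjusted p = 0.276), below its brighter probe on every array.

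Leaving out an array of slide 1 moved calls more than ratios. Without replicate 1 or 2 the dimmer probes missed the threshold for Mrpl17 (adjusted p = 0.0515 and 0.0575), Mrpl41 (0.082 and 0.0979), Mrpl55 (0.0547 and 0.0524) and Mrps23 (0.0634 and 0.0807). Their mean log2 ratios hardly moved, with 0.46 and 0.45 for Mrpl17, 0.33 and 0.32 for Mrpl41, 0.60 and 0.64 for Mrpl55 and 0.39 and 0.35 for Mrps23. The dimmer probe of Mrps27 stayed above it without any single array. Without replicate 4 the dimmer probe of Mrpl18 passed as higher (0.45, adjusted p = 0.0374), and so did the brighter probe of Mrpl41 (0.42, adjusted p = 0.0442).

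**Figure D3:**
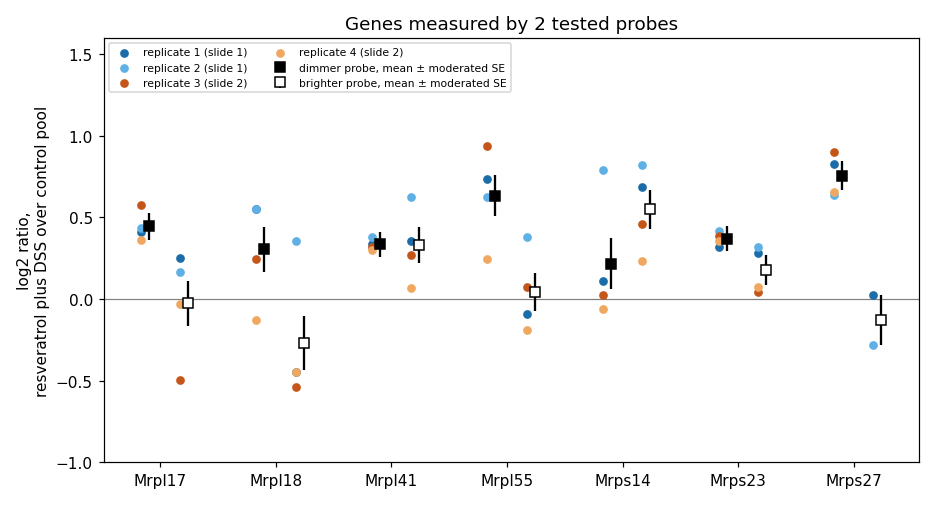
Log2 ratio of resveratrol plus DSS over the control pool (y axis) for the 7 genes with 2 tested probes (x axis), with the dimmer probe on the left and the brighter on the right of each gene. Coloured points are arrays and squares are means with the moderated SE, filled for the dimmer probe. The filled square is the higher in every gene except Mrps14.

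High ratios on these arrays were more frequent among probes that hold the hexamer CACCTC or ACCTCA. On the probe strand 5.98% of all probes called higher held CACCTC or ACCTCA, beside 3.81% of all tested probes. Of the 60 member probes 2 held it, the brighter probe of Mrps27 and the probe of Mrpl52, and none of the 25 member probes that rose did.

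The members were next placed beside the machinery they work with, in lists made from knowledge of mitochondrial translation. The counts below stand beside 22.3% higher and 24.4% lower over all gene names. A gene could enter them through Cy5 alone, the dye of the resveratrol rats, so they describe the tested members only. Among those that rose, Cy3 was well above background on 2 arrays for Gfm1, Mtfmt, Taco1, Rpusd4 and Polg. It was so on 1 array for Ears2, Ppargc1b and Ndufaf3. All of these were tested through Cy5, the dye in which they were higher. Atpaf2, of the inner membrane list, rose by 0.30 ± 0.10 with Cy3 well above background on 2 arrays and Cy5 on 1. Of the 14 listed translation factors, 8 were tested, and 6 rose and none fell, with a median of 0.43. Tufm, the elongation factor that delivers transfer RNA, rose by 0.68 ± 0.08 (adjusted p = 0.00501), and Mtif2, which places the initiator transfer RNA, by 0.64 ± 0.10 (adjusted p = 0.00692). Gfm1, which moves the ribosome along the message, rose by 0.49 ± 0.08 and Guf1, a GTPase related to bacterial LepA, by 0.46 ± 0.10. Mrrf, the recycling factor, had -0.57 on 2 arrays and did not pass the threshold (adjusted p = 0.215).

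Of 5 tested subunits of this ribosome that carry other names, Ict1 rose by 0.37 ± 0.11 (adjusted p = 0.041) and the other 4 did not pass. Ict1, now Mrpl58, is a release factor built into the large subunit. A further subunit probe, for Mrps11 under an old locus name, had 0.10 ± 0.09 (adjusted p = 0.391). Of 18 transfer RNA synthetases and processing enzymes 4 rose and none fell (median 0.18), a share of 22.2% that is near that of all genes. Iars2, Ears2 and Kars, which charge transfer RNA, rose by 0.44, 0.41 and 0.30. Elac2, which trims transfer RNA ends, rose by 0.91 on the 2 arrays of slide 1, by a probe with the hexamer. Without replicate 1 or without replicate 2, 0 genes of this list passed as higher in limma, and 2 did in each case at an unadjusted p under 0.05.

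Of 17 tested genes for assembly of the ribosome and modification of its RNA 6 rose (35.3%) and none fell, with a median of 0.10. Mtg2, a GTPase of large subunit assembly, rose by 0.65 ± 0.10, Rpusd4, a pseudouridine synthase, by 0.57 ± 0.10 and Lrpprc, which stabilises mitochondrial messages, by 0.55 ± 0.11. Trmt10c, a subunit of mitochondrial RNase P, had the highest ratio of the list at 1.85 ± 0.18, and its probe holds the hexamer. Of 12 tested genes for mitochondrial transcription, DNA replication and biogenesis 5 rose (41.7%) and none fell (median 0.27), among them the coactivator Ppargc1b (0.49 ± 0.08), the DNA polymerase Polg (0.42 ± 0.10) and the ETS factor subunit Gabpa (0.36 ± 0.10). Myc gave 1.87 ± 0.18, also by a probe with the hexamer. Its values on replicates 1 to 4, 2.32, 1.59, 1.35 and 2.25, lay close to the 2.37, 1.57, 1.35 and 2.10 of Trmt10c. Nrf1, Ppargc1a and Tfam, well known regulators of nuclear and mitochondrial genes of the organelle, had -0.03, 0.10 and 0.06 and did not pass.

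Of 14 tested genes that insert the products into the inner membrane or assemble the respiratory chain 5 rose (35.7%) and 1 fell, with a median of 0.28. Phb, a prohibitin scaffold, rose by 0.84 ± 0.18, Ndufaf3, an assembly factor of complex I, by 0.55 ± 0.09, Immt, which shapes cristae, by 0.43 ± 0.10 and Spg7, a protease subunit that matures Mrpl32, by 0.42 ± 0.10. Ndufaf4, the partner of Ndufaf3, had a mean of -0.28 ± 0.08 and fell (adjusted p = 0.0317). Mrpl32 itself had 0.11, 0.45, -0.24 and 0.01, on both sides of 0, with a mean of 0.08 ± 0.13 (adjusted p = 0.59). Across these 6 lists 27 of 74 members rose (36.5%) and 1 fell (29 and 2 at an unadjusted p under 0.05). Without replicate 1 or 2, 10 and 8 passed as higher, shares of 15.4% and 11.9% that lie near the 12% and 12.1% of all probes. Tufm, Mtif2, Gfm1, Mtg2, Trmt10c, Myc, Ppargc1b and Ndufaf3 still passed without any single array, Trmt10c and Myc by probes with the hexamer. In these lists the probes of Dap3, Trnt1 and Cox18 hold the hexamer too, and with 0.02, 0.21 and -0.28 they did not pass. The other genes named above that rose or fell and have 4 values missed the threshold without replicate 1 (adjusted p = 0.0519 to 0.175, Mtfmt and Phb apart) and without replicate 2 (0.0522 to 0.204). Kars (0.0764) and Taco1 (0.0793) missed it without replicate 3 too. Without replicate 4 it was missed by Gabpa (0.0656), Ndufaf4 (0.0651), Spg7 (0.054), Taco1 (0.0849) and Atpaf2 (0.0874).

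**Figure D4:**
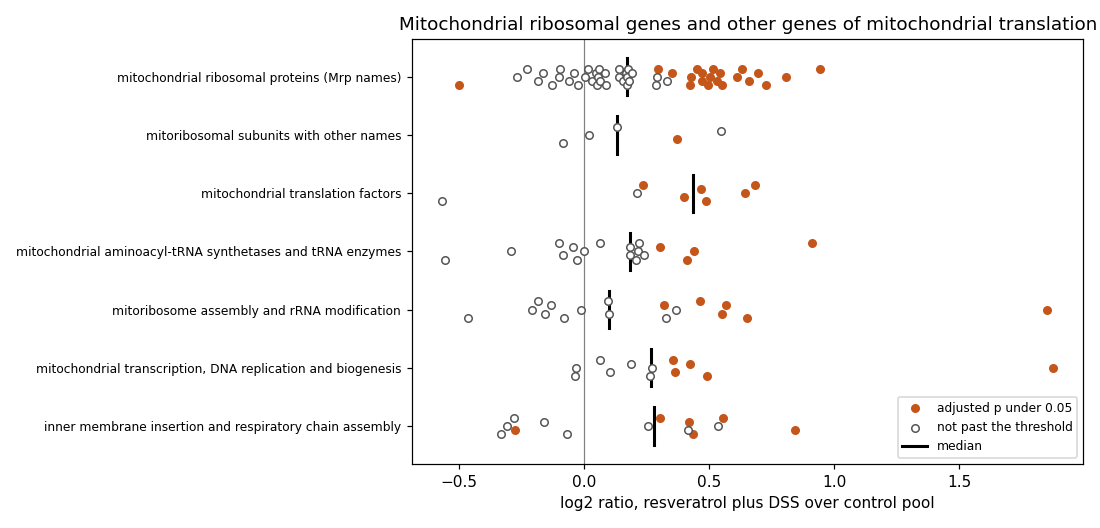
Log2 ratio of resveratrol plus DSS over the control pool (x axis) for the 53 mitochondrial ribosomal genes (top row) and 6 lists of genes that work with them (lower rows). Each point is a gene, filled where the adjusted p was under 0.05, and the black line is the median of the row. All medians lie above 0, between 0.10 and 0.43, and both points above 1.5 are Trmt10c and Myc.

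For comparison, of 73 genes for proteins of the cytosolic ribosome 18 were higher, a share of 24.7% near the 22.3% over all gene names, and 1 was lower (median 0.26). Of 61 subunit genes of oxidative phosphorylation 23 were higher (37.7%) and none lower (median 0.31). Without replicate 1 or 2 these counts were 6 and 6 for the cytosolic ribosome (8.45% each) and 9 and 9 for oxidative phosphorylation (15.8% each), beside 12% and 12.1% of all probes. With arrays centred on their median they were 68 of 73 and 55 of 61, beside 29 of 53 mitochondrial ribosomal genes (54.7%) and 36.3% of all probes. The medians of both sets lay above the 0.17 of the mitochondrial ribosomal genes, whose share of calls as higher, 37.7%, equals that of the oxidative phosphorylation genes and exceeds the 24.7% of the cytosolic set. The differences between the 3 sets were not tested.

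Markers of cell types were counted in the same samples, beside 22.3% higher and 24.4% lower over all gene names. Of 15 epithelial and colonocyte markers 7 were higher and none lower (range 0.01 to 1.38, median 0.72), and of 4 goblet cell markers 2 were higher (0.09 to 1.63, median 0.33). Of 8 leukocyte markers 5 were lower (-3.17 to 0.24, median -0.60), of 6 fibroblast markers 5 (-2.30 to 0.22, median -1.18), of 5 smooth muscle markers 1 (-1.87 to 0.43, median -0.56) and of 3 erythrocyte markers all 3 (-3.28 to -0.66, median -2.65). The share of smooth muscle markers that were lower, 20%, lay near that of all gene names. Genes of pancreatic enzymes, foreign to colon mucosa, were measured too, and 4 of 5 were lower (median -1.89, the value of Prss1). For Amy2a3 and Prss1 Cy5 was well above background on 0 arrays, and for the fibroblast markers Dcn and Pdgfra on 1. These genes were tested through Cy3 alone, the dye of the control pool, in which they were higher. The counts of lower pancreatic and fibroblast genes therefore describe the tested genes only, and the size of these ratios is uncertain. Without replicate 1 or 2, 3 of 14 and 3 of 13 epithelial markers passed as higher, beside 12% and 12.1% of all probes. Of the leukocyte markers 3 of 7 and 2 of 7 then passed as lower, beside 9.32% and 8.7% of all probes. Without replicate 3, 11 of 15 epithelial markers passed as higher, beside 25.5% of all probes. The part of these shifts in the ratios of the ribosomal genes was not tested.

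Many nuclear genes for mitochondrial proteins are known to carry sites for NRF1, ETS factors and YY1 near their start. RefSeq promoter windows of GRCr8, from 250 bases before to 50 bases after the start, were found for 49 of the 61 genes and were searched on both strands for GCGCA, any base and then GCGC (NRF1), CCGGAAG (ETS), AAGATGGCG (YY1) and CACGTG (E-box). For NRF1, 8 of 49 member windows (16.3%) held the letters, beside 4.71% of all 27457 windows. For ETS the shares were 32.7% and 9.22%, for YY1 18.4% and 1.93%, and for the E-box 12.2% and 6.65%. At least 1 of the first 3 was held by 53.1% of member windows and 14.3% of all windows.

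The shares with these letters were also counted by call, with no test of the difference. Of the 14 genes with a window that rose 6 held at least 1 of the first 3 (42.9%), and of the 27 tested genes with a window that did not rise by their brightest probe 16 did (59.3%). A match is a description of the letters and not of binding. The NRF1 letters, in capitals, are shown with the bases around them in 2 genes that rose, Mrps18b and Mrpl45, and then in 2 that did not by their brightest probe, Mrpl17 and Mrpl32. They are at chr20:2842971-2843005 (plus strand), chr10:82804879-82804918 (plus), chr1:169575730-169575769 (minus) and chr17:55260574-55260613 (plus) of GRCr8, all upstream of the annotated start.
Mrps18b: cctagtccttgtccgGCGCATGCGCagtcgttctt
Mrpl45: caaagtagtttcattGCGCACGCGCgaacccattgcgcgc
Mrpl17: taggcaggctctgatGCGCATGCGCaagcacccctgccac
Mrpl32: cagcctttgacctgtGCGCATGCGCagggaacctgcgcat

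As to the arrays themselves, Cy5 signal well above background was found on 44.1 to 49.2% of spots and Cy3 signal on 42.8 to 57.1%. Outlier flags took out 3.45% and 4.68% of spots on the arrays of slide 1 and 11% and 13.7% on those of slide 2. The median of the member genes was 0.25, 0.38, 0.24 and 0.07 on replicates 1 to 4, against 0.04, 0.04, -0.06 and 0.01 for all tested probes. Of the members with a value, 44 of 53, 49 of 53, 34 of 47 and 30 of 46 lay above 0. On slide 1 alone 33 of 60 member probes passed as higher (55%), beside 33.3% of all tested probes. On slide 2 alone 3 of 53 did (5.66%), beside 5.16% of all tested probes.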

How the data were processed

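RNA from colon mucosa was hybridised to 4 two-colour Agilent arrays with probes of 60 bases, on 2 slides. Per the file headers, the authors deposited scanner output of Agilent Feature Extraction 9.5.3.1, with mean and background intensity per spot in both dyes, and the submitters' processing notes name limma too. The authors' deposited value table holds log2 ratios of 24197 probes. They followed the scanner log2 ratios (r 0.98 to 0.99 on each array, slope 0.97 to 1.00, column medians -0.01, -0.01, 0.09 and -0.02), so that table has the same scale and direction, and its centring is not stated.

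Intensities were corrected with normexp (offset 50) and loess in limma 3.58.1 (R 4.3.3), with control and outlier spots at weight 0 and outlier values left out. Spots of a probe were averaged. The 18869 probes tested had signal well above background in 1 or both dyes on 3 or more arrays, and 2 or more values. Their mean over arrays was compared with 0 by lmFit and eBayes, with Benjamini-Hochberg adjustment. Precision is limited by the number of arrays. A gene is given by its brightest tested probe. Lower bounds used Aquantile-scaled channels. Probe positions are those of the files (rn3). The fit was tested on simulated data.

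Genes named with array values were the 12 highest and 8 lowest, those whose probes differed in sign or call, the stalk genes, and Mrps30, Mrps18a and Mrps36; the other called genes and members of role groups are given by their means. In each list of genes that work with the ribosome, up to 4 called members with the largest ratios were named, and Ndufaf4, Mrrf, Nrf1, Ppargc1a, Tfam and Mrpl32 were chosen after their values were seen. Members and lists were chosen with earlier results of these data known. Alternatives were another background correction, median centring, other filters, the slide, each array left out, the authors' table, other subunit assignments and, for role groups and lists, omissions, median centring and a filter on both dyes that were added after seeing the data. A further alternative was the standard error times the square root of 2, which stands for an unmeasured spread of the control pool as large as that of the resveratrol samples. No protein or genome sequence was used, so whether a probe lies in coding sequence or a UTR was not determined.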

Additional observations from a re-analysis of the deposited data

Results flagged for a closer look

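Of the 28 values by array that were examined for a sample far from the others, 2 stood apart by Dixon's criterion, and chance gives about 1 in 20 groups. The brighter probe of Mrpl18 had a log2 ratio of 0.36 on replicate 2 and -0.44, -0.54 and -0.44 on replicates 1, 3 and 4. Its gap to the nearest array was 0.893 of the range, above the critical value for 4 samples. Mrps36 had 0.59 on replicate 2 and 0.04, 0.04 and 0.10 on the others, with a gap of 0.887 of the range. Both stand on the array with the highest median of the member genes, 0.38.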

How the results depend on the processing

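The direction of the median of the 53 genes (0.17) and of the large minus small difference (-0.15) was the same under every alternative run. No paired analysis was possible because the arrays form 1 group and their numbers only follow the order of deposit. Under median centring the median was 0.48, the difference -0.052, and no member probe (0) and no gene was lower in limma. With outlier spots kept the difference was -0.23, and 2 probes and 2 genes were lower. With both dyes well above background on all arrays the difference was -0.015, and 13 probes and 10 genes were higher. With slide as a random block 0 probes and 0 genes were lower, and on slide 1 alone the median was 0.30. On slide 2 alone 3 probes and 3 genes were higher and 0 lower, and with the standard error times the square root of 2, 8 probes and 7 genes were higher and 0 lower. With Mrps30 and Mrps18a in the large subunit and without Mrps36 the difference was -0.25. Without single replicates 9 to 28 probes and 9 to 22 genes were higher, 0 to 2 were lower, the median was 0.15 to 0.25 and the difference -0.23 to -0.083. The cause of these moves was not tested, except that slide 2 alone and the omissions leave fewer arrays.

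Mrpl43 and Mrps10 passed under every alternative that tested them. Mrpl16, Mrpl35, Mrpl36, Mrpl45 and Mrps18b missed the threshold on slide 2 alone and under no other alternative that tested them. Mrpl12 missed it also with the authors' table (adjusted p = 0.13), with slide as a random block (0.058) and with both dyes well above background on all arrays (0.0529).

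Genes near 0, none past the threshold on either side, changed sign. Processed signals gave 0.086 for Mrpl44 and 0.026 for Mrpl17. Median centring gave 0.17 for Mrpl1, 0.019 for Mrpl44, 0.20 for Mrps27, 0.10 for Mrpl38, 0.26 for Mrpl30, 0.16 for Mrpl52, 0.14 for Mrpl18 and 0.36 for Mrpl17. Outlier spots kept gave 0.041 for Mrpl1, 0.037 for Mrpl52, 0.00055 for Mrpl18 and 0.22 for Mrpl17. Slide 1 alone gave 0.16 for Mrpl1, 0.021 for Mrpl38, 0.21 for Mrpl52 and 0.21 for Mrpl17, and slide 2 alone -0.056 for Mrpl55 and -0.14 for Mrps18a. Without single replicates Mrpl55 ranged from -0.067 (without replicate 2) to 0.12, Mrps18a from -0.052 (2) to 0.18, Mrpl38 from -0.35 to 0.021 (3), Mrpl17 from -0.12 to 0.13 (3) and Mrpl1 from -0.18 to 0.017 (4). Adding the 2 probes that hold a member's current symbol, chosen after seeing the data, gave 26 of 62 probes higher.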
